A study of Mus musculus with 4 samples.

Results

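Accessible chromatin at the genes of the inflammasome and of the IL-1 family was described in mouse bone marrow-derived macrophages (BMDMs) with and without IL-4. ATAC-seq, which maps open DNA by where the Tn5 transposase inserts sequencing adapters, was performed on wild-type BMDMs from C57BL/6 mice of 8 to 12 weeks of age, grown for 6 days with supernatant of L929 cells as a source of macrophage colony-stimulating factor. There were 2 libraries of untreated control cells and 2 libraries of cells given IL-4 (20 ng/ml) for 1 h. The genotype was the same in both groups and the study describes 2 biological replicates. Merging peaks of any library that shared at least 1 bp gave 60710 regions, and each region took the gene name that the files give to its highest peak. Of these, 40 regions carried the name of 1 of 10 genes, namely Nlrp3, Aim2, Pycard, Casp1, Casp4, Gsdmd, Il1a, Il1b, Il18 and Il1rn. Gene names follow the nearest transcription start site (TSS), so a region is not shown to act on the gene that it is named for.

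Inflammasomes are cytosolic complexes in which a sensor such as NLRP3 or AIM2 recruits the adaptor ASC, encoded by Pycard, which in turn activates caspase-1. Caspase-1 cleaves the precursors of IL-1β and IL-18 and opens the pore-forming protein gasdermin D, and mouse caspase-11, encoded by Casp4, senses bacterial lipopolysaccharide. In macrophages Il1b and Nlrp3 are induced through NF-kB, whereas IL-4 acts through the transcription factor STAT6.

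The values are the peak scores of the deposited lists, read here as −log10 of the q-value of the peak caller. A score states how strongly a peak stands out from its library's own background. It is no read count, and its size also follows sequencing depth, which is unknown. The libraries held 39462 to 45250 peaks, and IL-4 replicate 2 had both the fewest peaks and the lowest median score (6.41, against 7.46 to 8.04 in the other 3). As a check of the labelled cell type, the macrophage genes Cd68, Mertk, Fcgr1 and Lyz2 had a promoter peak in all 4 libraries, while Csf1r, Adgre1, Spi1 and Itgam had none under the promoter annotation. Among marker genes of other cell types, 3 of T cells, 3 of B cells, 3 of neutrophils and 2 of fibroblasts had no promoter peak, and the dendritic cell genes Zbtb46 and Flt3 had one in 3 libraries, IL-4 replicate 2 being without. Their part in the results was not tested.

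Sequences of selected regions were read from the reference genome on its plus strand (mm10, 5′ to 3′). Annotated exons were left out, except at the Il1rn site, where a predicted exon covers the match. The first set is shown for the letters TTCNNNNGAA, the spacing that STAT6 prefers. In windows of 300 bp, 7.5% of the 40 regions held these letters, against 9.05% of all regions. Within their own bounds, 3 of the 40 regions held them. They lay in the Nlrp3 promoter region (shown at chr11:59542540-59542684), in the Il1rn promoter region (the site alone, chr2:24345160-24345189) and in an intergenic region upstream of Il1a (chr2:129319965-129320205), with the match in capitals.
Nlrp3 promoter: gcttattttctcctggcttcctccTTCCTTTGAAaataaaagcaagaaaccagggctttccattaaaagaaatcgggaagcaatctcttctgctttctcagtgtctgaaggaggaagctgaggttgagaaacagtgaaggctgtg
Il1rn promoter site: tgtgctcttcTTCCCAGGAAcaccatgaag
Il1a upstream: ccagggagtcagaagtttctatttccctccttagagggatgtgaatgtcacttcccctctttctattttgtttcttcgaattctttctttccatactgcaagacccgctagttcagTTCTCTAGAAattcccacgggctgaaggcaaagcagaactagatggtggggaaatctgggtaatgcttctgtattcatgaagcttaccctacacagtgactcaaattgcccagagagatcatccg

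The second set holds the 3 regions found in both replicates of 1 group and absent from the other group. The region upstream of Il1b (chr2:129380311-129380474, intergenic) was found with IL-4 only, and its capitals mark the letters GGGNNNNNCC of the NF-kB pattern. The region in intron 1 of Il18 (chr9:50570269-50570473) was found in control cells only and holds 2 copies of the AP-1 pattern TGANTCA in capitals. The region downstream of Gsdmd (chr15:75876033-75876221, intergenic, 52.9% repeat-masked) was also found in control cells only, with the PU.1 core GAGGAA in capitals as read on the minus strand.
Il1b, IL-4 only: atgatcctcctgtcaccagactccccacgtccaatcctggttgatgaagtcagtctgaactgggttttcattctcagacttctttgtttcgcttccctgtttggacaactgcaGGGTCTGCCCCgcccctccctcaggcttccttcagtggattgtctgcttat
Il18, control only: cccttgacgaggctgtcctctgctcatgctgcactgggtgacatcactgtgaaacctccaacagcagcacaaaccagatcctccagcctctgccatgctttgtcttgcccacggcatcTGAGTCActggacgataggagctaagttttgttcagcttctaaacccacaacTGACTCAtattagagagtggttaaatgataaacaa
Gsdmd, control only: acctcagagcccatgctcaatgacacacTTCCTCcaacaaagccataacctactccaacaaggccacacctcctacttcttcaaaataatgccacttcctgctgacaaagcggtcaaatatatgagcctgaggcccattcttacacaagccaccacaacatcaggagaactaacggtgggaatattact

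The 40 regions were spread unevenly over the genes. Aim2 had 12 regions, Nlrp3 had 6, Il1a and Il1rn had 5 each, Il1b had 4, Gsdmd had 3, Pycard had 2, and Casp1, Casp4 and Il18 had 1 each. A peak was found in all 4 libraries at 19 of them (47.5%, against 41.9% of all regions) and in a single library at 9 (22.5%, against 29.6%). By annotation 19 regions were intergenic, 12 intronic and 6 at promoters (15%, against 18.8% of all regions). The distance to the TSS exceeded 10 kb at 15 of 40 (37.5%, against 56.7%). Il18 and Pycard were the 2 genes without any region shared by all libraries.

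**Figure D1:**
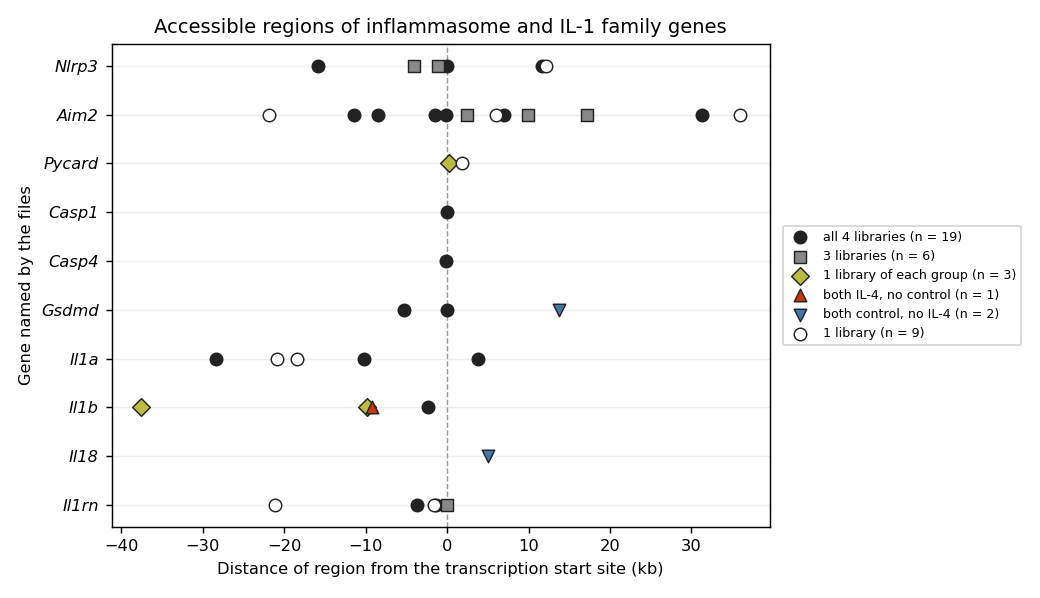
Each symbol is 1 of the 40 regions, and its shape and shade give the libraries in which it had a peak. Symbols are placed by gene (y axis) and by distance from the TSS that the files use for that region (x axis, kb, negative being upstream). Black circles mark the 19 regions shared by every library, 5 of them at the start sites of Nlrp3, Aim2, Casp1, Casp4 and Gsdmd and the other 14 further away, while Il1b has 1 IL-4-only region and Il18 and Gsdmd have 1 control-only region each.

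The first question was whether 1 h of IL-4 opened or closed regions at these genes. Each control library had a peak at 30 of the 40 regions, while IL-4 replicate 1 had one at 32 and IL-4 replicate 2 at 23. The difference of −2.5 regions (30 in both control libraries, IL-4 27.5 ± 6.36, SD, n = 2 each) lay within the spread of the IL-4 libraries (exact permutation p = 1, two-sided, with 0.3333 as the smallest p that 2 against 2 libraries allow). IL-4 replicate 1 had the most regions of the 4 libraries and IL-4 replicate 2 the fewest, so the groups overlapped. One region was found in both IL-4 libraries and in no control library (2.5%, against 2.53% of all regions), and 2 in both control libraries and in no IL-4 library (5%, against 4.33%). Both shares were close to those over all regions. With peaks above the pooled median score (7.37) alone, both counts were 0.

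**Figure D2:**
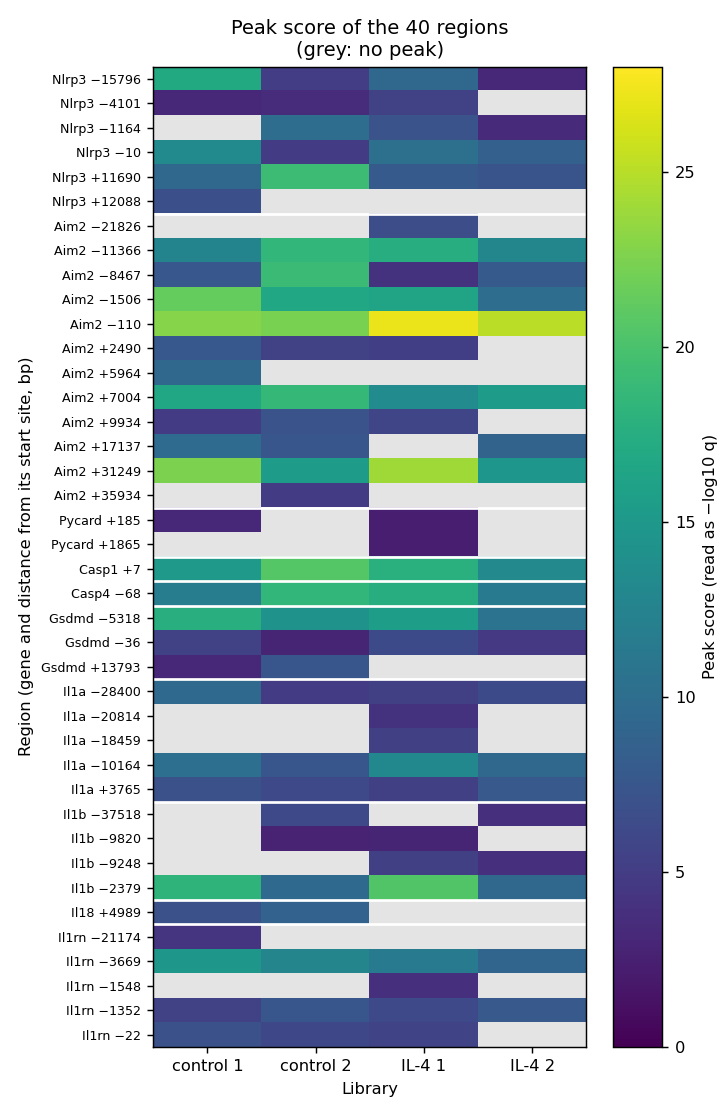
Peak scores of the 40 regions (rows, named by gene and distance from the TSS in bp) in the 4 libraries (columns) are shown by colour, with grey where no peak was listed. The Aim2 promoter row is the brightest in all 4 libraries (22.42 to 27.2), and grey cells are most frequent in IL-4 replicate 2.

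The second question was whether scores changed at the regions that every library shared. Scores were log2-transformed, quantile-normalised and compared with limma over all 25442 shared regions, with Benjamini-Hochberg adjustment over all of them. None of the 19 regions passed an adjusted p of 0.05 (lowest adjusted p = 0.730, limma), and 6 of all 25442 regions did (0.0236%). At an unadjusted p under 0.05 there were likewise 0 of the 19, against 8.28% of all shared regions. The estimated change was above 0 at 12 regions and below 0 at 7, and without normalisation this split turned to 7 and 12. Estimates ran from −0.79 to 0.66 on the log2 scale. The median change was 0.15 and the mean 0.045, against a median of −0.001 over all shared regions. The median was −0.071 without normalisation and 0.01 to 0.06 when any single library was left out. The 95% intervals of all 19 changes included 0. Standard errors ran from 0.254 to 0.549, and the intervals reached as low as −1.83 and as high as 1.76. Changes larger than the standard errors therefore also could not be told from the spread between libraries. In the same fit a change of 1.71 ± 0.524 (SE) at a region of Nek7 did not pass the adjusted threshold.

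After normalisation both IL-4 libraries lay above both control libraries at 3 of the 19 regions (19.2% of all shared regions did so) and below them at 2 (18.6%). On the deposited scores these counts were 1 (8.83% of all shared regions) and 4 (29.3%), and the median change of all shared regions on that scale was −0.211. The regions apart in the same direction on both scales were those at the Aim2 promoter, 1506 bp upstream of Aim2, and 3669 bp upstream of 1 of the Il1rn starts.

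**Figure D3:**
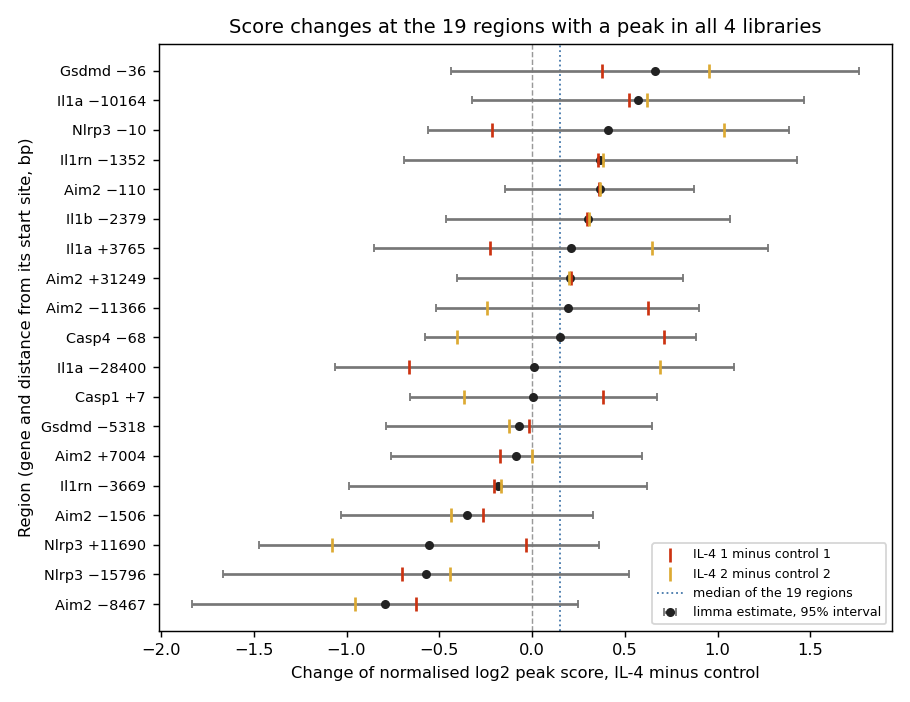
Points give the limma estimate of the change in normalised log2 peak score (x axis, IL-4 minus control) at the 19 regions shared by all 4 libraries (y axis), with 95% intervals, and coloured ticks give the differences within libraries of equal replicate number. Every interval crosses 0, the estimates run from −0.79 at Aim2 −8467 to 0.66 at Gsdmd −36, and the dotted line marks the median of 0.15.

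Among the sensors, Nlrp3 had its promoter region at chr11:59542540-59542816, 10 bp upstream of the TSS by its centre. It scored 13.37 and 5.01 in control cells and 10.32 and 8.56 with IL-4. Both IL-4 values fell between the control values. The log2 change was 0.41 ± 0.485 (SE, 95% interval −0.56 to 1.38, limma adjusted p = 0.882). The promoter region holds the STAT6-spaced letters printed above, at 59542564 to 59542573.

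In intron 5 of Nlrp3, 11690 bp downstream of the TSS, the scores were 9.33 and 19.17 in control cells and 7.96 and 7.31 with IL-4. Both IL-4 scores were below both control scores as deposited, but not after normalisation. Its change of −0.56 ± 0.457 (SE, limma adjusted p = 0.804) rested largely on control replicate 2, without which it was 0.07. That region holds 1 copy of the AP-1 pattern and is shown whole because it carried the highest single score at Nlrp3 (chr11:59554283-59554498, match in capitals).
Nlrp3 intron 5: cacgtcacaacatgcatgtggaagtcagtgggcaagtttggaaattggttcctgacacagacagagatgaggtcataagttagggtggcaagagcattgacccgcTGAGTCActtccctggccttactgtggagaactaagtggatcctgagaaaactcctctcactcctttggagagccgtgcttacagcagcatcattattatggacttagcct
The intergenic region 15796 bp upstream scored 17.05 and 5.07 in control cells and 9.43 and 3.11 with IL-4, a change of −0.57 ± 0.545 (SE, limma adjusted p = 0.846) that was 0.19 without control replicate 1 and 0.08 without IL-4 replicate 2. Here the replicates of each group were farther apart than the groups. The other 3 regions of Nlrp3 had a peak in 3 libraries or in 1. Among them, the region 1164 bp upstream of the TSS that the files use spans another RefSeq start of Nlrp3 (chr11:59541569).

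Aim2, the sensor of cytosolic DNA, had more regions than any other of the 10 genes, and 6 of its 12 were shared by all libraries. Its promoter region (chr1:173420368-173420647) scored 22.89 and 22.42 in control cells and 27.2 and 25.12 with IL-4. These were the highest scores among the 40 regions in each library, and both IL-4 values lay above both control values. The change was 0.36 ± 0.254 (SE, 95% interval −0.14 to 0.87, limma adjusted p = 0.758), 0.36 and 0.37 within the 2 pairs of equal replicate number. It did not pass the test, although it had the smallest standard error of the 19 regions.

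The estimate had the opposite sign at the region 1506 bp upstream of Aim2, with scores of 21.39 and 16.64 in control cells and 16.3 and 9.98 with IL-4. The change was −0.35 ± 0.34 (SE, limma adjusted p = 0.849). A region 8467 bp upstream had the largest change of the 19, −0.79 ± 0.519 (SE, 95% interval −1.83 to 0.25, limma adjusted p = 0.730), from scores of 7.58 and 19.12 in control cells and 4.14 and 7.93 with IL-4. The control replicates differed more from each other there than the groups did, and the change ranged from −1.59 to −0.026 when single libraries were left out. In the gene body, the intron 2 region 31249 bp downstream scored 22.45 and 15.53 against 23.97 and 14.75 with IL-4 (change 0.21 ± 0.304, SE, limma adjusted p = 0.916). The intron 1 region 7004 bp downstream scored 16.76 and 18.65 in control cells against 13.53 and 15.49 with IL-4 (change −0.08 ± 0.337, SE, limma adjusted p = 0.973). Estimates at the 6 shared regions of Aim2 thus lay on both sides of 0, with 3 above and 3 below (2 and 4 without normalisation). Of its other 6 regions, 3 had a peak in 3 libraries and 3 in a single library.

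Pycard, the adaptor gene, had no region shared by all libraries. The region 185 bp downstream of its TSS, in the 5′ UTR of exon 1, had scores of 3.28 in control replicate 1 and 2.35 in IL-4 replicate 1 and no peak in either replicate 2. Presence therefore followed the replicate number and not the treatment. A peak in the 3′ UTR was found in IL-4 replicate 1 alone (2.35). Scores of this size are near the lowest in the files (1.3).

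The caspase genes each had 1 region, at the promoter and in all libraries. Casp1 (chr9:5298282-5298759) scored 15.06 and 20.59 in control cells and 17.74 and 13.21 with IL-4, a change of 0.006 ± 0.333 (SE, 95% interval −0.66 to 0.67, limma adjusted p = 0.998). Casp4 (chr9:5308595-5308981) scored 11.88 and 18.54 in control cells and 17.41 and 11.47 with IL-4, a change of 0.15 ± 0.364 (SE, 95% interval −0.58 to 0.88, limma adjusted p = 0.949). In both genes IL-4 replicate 1 was above control replicate 1 and IL-4 replicate 2 below control replicate 2, so the groups overlapped. The Casp4 promoter is shown because it held more matches to the NF-kB pattern than any other of the 40 regions, 7 counted over both strands, of which 6 lie in the stretch before the TSS (chr9:5308595-5308848). Overlapping matches run together in its capitals.
Casp4 promoter: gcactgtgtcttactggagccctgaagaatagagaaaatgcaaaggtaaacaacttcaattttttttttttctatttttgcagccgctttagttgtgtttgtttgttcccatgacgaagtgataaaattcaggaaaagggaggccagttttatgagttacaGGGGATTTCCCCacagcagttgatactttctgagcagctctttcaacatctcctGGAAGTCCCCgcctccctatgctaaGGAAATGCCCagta

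Gsdmd, which encodes the pore-forming protein of pyroptosis, had 3 regions. The promoter region, 36 bp upstream of the TSS, scored 5.46 and 2.91 in control cells and 6.25 and 4.69 with IL-4. Its log2 change of 0.66 ± 0.549 (SE, 95% interval −0.43 to 1.76, limma adjusted p = 0.804) was the largest increase of the 19, at the lowest mean score of them (4.83). Both IL-4 libraries lay above both control libraries after normalisation, whereas the deposited scores overlapped. The region 5318 bp upstream changed by −0.07 ± 0.358 (SE). The control-only region printed above, 13793 bp downstream, scored 3.17 and 7.46 in the control libraries.

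Of the cytokine genes, Il1a had 3 shared regions, each with an estimate above 0, of which 2 turned negative without normalisation. The lowest estimate, 28400 bp upstream, was close to 0 (0.013 ± 0.536, SE, limma adjusted p = 0.997). The intergenic region 10164 bp upstream (chr2:129319895-129320410) scored 10.25 and 7.48 in control cells and 13.07 and 9.37 with IL-4. Its change was 0.57 ± 0.447 (SE, 95% interval −0.32 to 1.47, limma adjusted p = 0.788). After normalisation both IL-4 libraries lay above both control libraries, and leaving out single libraries kept the change between 0.44 and 0.68. The same region holds a STAT6-spaced match (129320081 to 129320090), printed above, and an AP-1 match. The region nearest to the Il1a TSS, 3765 bp downstream in exon 4 of the lncRNA gene Gm14023, scored 6.96 and 6.18 in control cells and 5.34 and 7.86 with IL-4 (change 0.21 ± 0.531, SE, limma adjusted p = 0.951). The RefSeq promoter window of Il1a, which spans 300 bases around the TSS, overlapped no region.

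Il1b, the other main IL-1 cytokine, had no region at its promoter window either. Its nearest region lay 2379 bp upstream, in intron 2 of the lncRNA gene Il1bos, and scored 18.25 and 9.55 in control cells and 20.39 and 9.5 with IL-4. These scores separated by replicate number and not by group, and the change was 0.30 ± 0.383 (SE, 95% interval −0.46 to 1.07, limma adjusted p = 0.893). The IL-4-only region 9248 bp upstream scored 5.34 and 3.73 in the IL-4 libraries. Neither the merging of peaks within 500 bp nor a limit at the pooled median score left any IL-4-only region among the 10 genes, this one included. The region 9820 bp upstream had a peak in 1 library of each group (2.66 in control replicate 2 and 2.86 in IL-4 replicate 1), and so did the region 37518 bp upstream (6.18 in control replicate 2 and 3.73 in IL-4 replicate 2).

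Il18, the other caspase-1 substrate among the cytokines, had a single region by name, in intron 1, 4989 bp downstream of the TSS that the files use. Its scores were 6.96 and 8.78 in the control libraries and no peak was listed in the IL-4 libraries. RefSeq also places an Il18 start further upstream (chr9:50554700), and its promoter window overlapped a region at chr9:50554707-50555011 that the files name for the neighbouring gene Bco2, so it is not among the 40. This region, chosen after its values were seen, scored 31.01 and 21.61 in control cells and 14.88 and 13.63 with IL-4. Both IL-4 scores were below both control scores, also after normalisation (change −0.69 ± 0.295, SE, 95% interval −1.28 to −0.10). The change had an unadjusted limma p of 0.0229 and did not pass the test over all regions (limma adjusted p = 0.535).

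Il1rn encodes the receptor antagonist that blocks IL-1 signalling. Its promoter region, 22 bp upstream of the TSS of 1 of its transcripts, scored 6.98 and 6.03 in control cells and 5.69 in IL-4 replicate 1, with no peak in IL-4 replicate 2. The STAT6-spaced letters printed above lie in it, at 24345170 to 24345179. The promoter window of the upstream Il1rn start (chr2:24336860) overlapped no region. At the 2 shared regions the change was −0.18 ± 0.401 (SE) and 0.37 ± 0.528 (SE). The first lay 3669 bp upstream of the start at the promoter region, within intron 1 of the longer transcript. The second lay 1352 bp upstream of the upstream start, so it was the farther of the 2 from the promoter region.

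The study designed primer pairs for candidate enhancers of 3 of these genes, and their positions were found by matching both primers to the genome, where each pair had 1 site. They are given here because they mark which stretch was measured by PCR.
Nlrp3 enhancer, forward: acagcatctactcagggtgg
Nlrp3 enhancer, reverse: gctctttacattagctgcccc
Il1b enhancer, forward: gctggaccgttttcttatagaca
Il1b enhancer, reverse: tgtagaaacacaggagcagaat
Il18 enhancer, forward: tgaaaagaaagctgtgttcacatt
Il18 enhancer, reverse: agcccgagaagcttatgaaa
The Nlrp3 amplicon (chr11:59541824-59541910) lay 201 bp from the nearest region, which is 1164 bp upstream of the Nlrp3 TSS that the files use. That region spans another RefSeq start of Nlrp3 (chr11:59541569), and the amplicon lies downstream of this other start. The region had no peak in control replicate 1. It scored 10.01 in control replicate 2, 7.19 in IL-4 replicate 1 and 3.43 in IL-4 replicate 2. The Il1b amplicon (chr2:129380721-129380813) lay 78 bp from the region 9820 bp upstream. A second Il1b pair had its site 61 bp from the same region. The name of that pair gives a shorter distance from Il1b than its place in the genome does. On the other side of both Il1b sites, within 1 kb, lay the IL-4-only region 9248 bp upstream. The Il18 amplicon (chr9:50591005-50591080) lay inside a region (chr9:50590876-50591205) that the files name for Sdhd. That region had a peak in all libraries, with scores of 24.63 and 12.19 in control cells and 17.19 and 14.17 with IL-4. Both IL-4 scores fell between the control scores, and the change was 0.05 ± 0.336 (SE, 95% interval −0.63 to 0.72, limma adjusted p = 0.986).

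**Figure D4:**
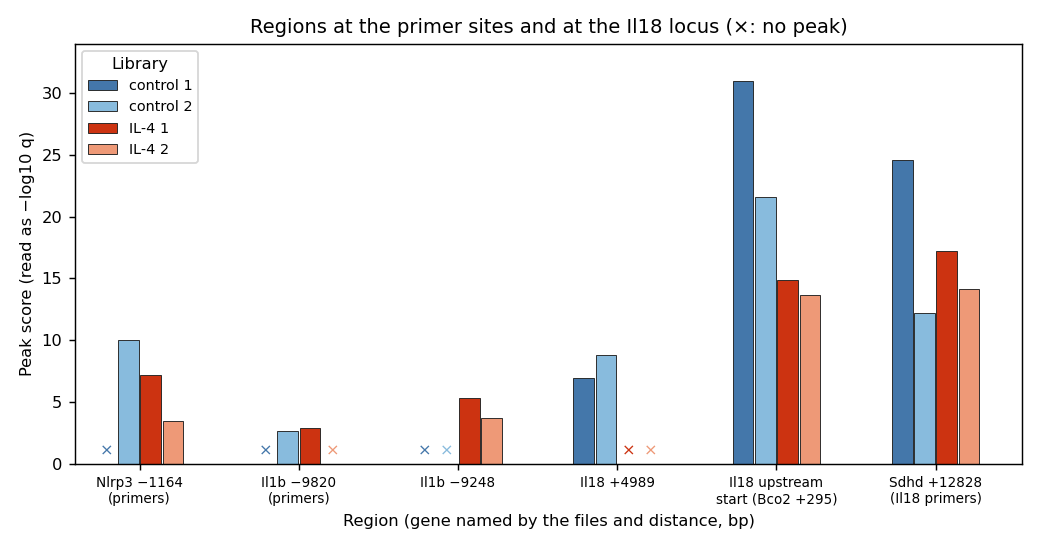
Bars give the peak score (y axis) in each of the 4 libraries at 6 regions near the primer sites of the study and at the Il18 locus, and a cross marks a library without a peak. At the region of the upstream Il18 start the IL-4 libraries (14.88 and 13.63) lie below the control libraries (31.01 and 21.61), and at the region of the Il18 primers the groups overlap.

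Motif letters were searched on both strands in windows of 300 bp around the highest peak of each region. The PU.1 core GAGGAA, bound by the macrophage factor PU.1, was present in 23 of the 40 windows (57.5%, against 43.1% of all 60710). The NF-kB pattern GGGNNNNNCC was present in 17 (42.5%, against 42.8%) and the AP-1 pattern TGANTCA in 7 (17.5%, against 23.4%). TTCNNNNGAA was present in 3 (7.5%, against 9.05%) and the shorter STAT spacing TTCNNNGAA in 2 (5%, against 8.92%). A match shows letters and not binding, some patterns can match both strands at 1 place, and the IL-4-only region of Il1b held NF-kB letters but none of the STAT, AP-1 or PU.1 patterns.

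Other genes of the pathway were taken from a list of 47 names. Of these 36 had regions, 158 in number, and 75 of the regions were shared by all libraries. None of the 75 passed the adjusted threshold (lowest limma adjusted p = 0.277), and 5 had an unadjusted p under 0.05, against 8.28% of all shared regions. Their median change was −0.044. The lowest p-values belonged to a region 23520 bp downstream of Nek7, which encodes a kinase that binds NLRP3. It scored 4.89 and 3.3 in control cells and 13.37 and 9.14 with IL-4 (change 1.71 ± 0.524, SE, limma adjusted p = 0.277). Another region of Nek7, 380 bp downstream of the TSS, changed by −0.68 ± 0.316 (SE, limma adjusted p = 0.568).

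Among the receptors, Il1rap, the accessory chain of the IL-1 receptor, had a change of 0.67 ± 0.271 (SE, limma adjusted p = 0.478) at 44587 bp, and Il1r1, the signalling receptor, one of −0.67 ± 0.319 (SE, limma adjusted p = 0.583) at 5408 bp. By presence, 7 of the 158 regions were found with IL-4 only (4.43%, against 2.53% of all regions) and 10 in control cells only (6.33%, against 4.33%). Among receptors and inhibitors, 4 of 35 regions were IL-4-only (11.4%) and 1 was control-only (2.86%). Among sensors and regulators these counts were 2 (2.11%) and 7 (7.37%) of 95. Among signal transducers they were 1 (4.76%) and 2 (9.52%) of 21. A control-only region lay 814 bp from the TSS of Irak3 (5.27 and 7.96 in the control libraries). Another lay 453 bp from that of Il1rap (3.17 and 8.12). Irak3 also had an IL-4-only region, at 11577 bp (8.58 and 7.12 in the IL-4 libraries), and so did Il1rap, at 53073 bp (4.11 and 3.73). The pair of control-only regions closest to a TSS is named, like these, after the values were seen. They lay 11 bp from the TSS of Myd88, the adaptor of IL-1 and Toll-like receptors (7.11 and 5.0 in the control libraries), and 97 bp from that of Nlrc4 (3.89 and 5.61).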

How the data were processed

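The authors aligned ATAC-seq reads to mm10 with BWA 0.7.10, called peaks in each library with MACS2 2.0.10, removed blacklisted regions and annotated peaks with HOMER 4.2 (SAMtools 0.1.19 is also listed; versions from the submitters' processing notes). Tn5 shifting and the handling of duplicates and mitochondrial reads are not given in the sources used here. The deposited peak score was read as −log10 of the q-value, since its lowest value was 1.3. The limit stated in the study's methods would correspond to a score of 2, yet 133 to 603 peaks per library scored lower, so this reading remains uncertain. The files hold no reads, so depth is unknown and the DiffBind analysis of the study was not repeated.

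Regions were scored by the highest peak of each library, and the merging was checked with bedtools 2.31.1. Shared regions were tested with limma 3.58.1 in R 4.3.3 (eBayes with trend, 95% intervals), which was tested on simulated data. Permutation tests used scipy 1.17.1. RefSeq sequences were those of GRCm38.p6, the assembly behind mm10, and promoter windows matched 9 of the 10 genes (not Gsdmd). Regions are named for their closeness to the TSS, group-specific presence, the 5 largest changes, the 5 highest mean scores, and closeness to the primers. Members, lists and motifs were chosen with earlier results of these data known. Alternatives covered scaling, trend, filters, merging, gene naming, a replicate block and single libraries left out. One list of cell type markers is not reported here.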

Additional observations from a re-analysis of the deposited data

How the results depend on the processing

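No region of the 10 genes was called by limma under any of the 13 other settings of the fit, and leaving out single libraries kept that count at 0. The count over all shared regions, 6, was 3 without normalisation, 0 without a variance trend, 3 with peaks above the pooled median score only, 0 with absent peaks set to the lowest score, and 0 to 14 with single libraries left out. With the replicate block it was 14. Scores of libraries of equal replicate number did not deviate together (Pearson r = 0.0068 across 25442 regions, which are not independent). The labels do not say what a number shares, so this does not settle whether the samples are paired. The median change of the members was −0.071 without normalisation (that of all regions was then −0.211), −0.002 with absent peaks filled in, and 0.01 to 0.06 with single libraries left out. The IL-4-only count was 0 with peaks above the median score or merged within 500 bp and 1 to 6 with single libraries left out, 6 without IL-4 replicate 2. The control-only count was 0 with peaks above the median score and 3 to 6 with single libraries left out, 6 without IL-4 replicate 1. When 1 library of a group was left out, its remaining library alone decided presence or absence, which is a looser rule. The shares over all regions were not computed for these settings, so these counts have no background beside them. The difference in regions per library ran from −7 to 2 and turned positive without IL-4 replicate 2. Causes were not tested.

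Of 14 named regions 8 changed sign under some setting, with no adjusted p under 0.531 for any of the 14. Without normalisation the change was −0.018 at Il1a +3765, −0.202 at Casp1 and −0.071 at Casp4, and with peaks above the median score it was −0.012 at Casp1. With single libraries left out, the changes ran from −0.185 to 0.995 at the Nlrp3 promoter, −1.351 to 0.189 at Nlrp3 −15796, −1.208 to 0.068 at Nlrp3 +11690, −0.085 to 0.688 at Il1b −2379, −0.225 to 0.669 at Il1a +3765, −0.322 to 0.327 at Casp1, −0.272 to 0.57 at Casp4 and −0.325 to 0.166 at Aim2 +7004. When 1 library of a group is left out, the lone library is assumed to vary like the other group.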

Other observations

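Some regions that lay within the bounds of these genes or within 5 kb of them carried the name of another gene, and their values, looked at after the fact, belong to no comparison above. The promoter region of the lncRNA gene Gm14023, next to Il1a, scored 32.6 and 28.24 in control cells and 21.54 and 19.19 with IL-4 (change −0.43 ± 0.247, SE, limma adjusted p = 0.665). Both IL-4 libraries lay below both control libraries there. The 3 shared regions named for Il1a had estimates from 0.013 to 0.57, of which 2 turned negative without normalisation. The difference between these regions was not tested. Within the RefSeq bounds of Aim2, a region named for Cadm3 scored 4.38 and 10.14 in control cells and 2.95 and 3.03 with IL-4 (change −0.92 ± 0.562, SE, limma adjusted p = 0.694). In the flank upstream of Il18, an intronic region named for Bco2 scored 3.45 and 7.07 in control cells and 7.02 and 6.4 with IL-4 (change 0.69 ± 0.549, SE, limma adjusted p = 0.796).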
